A study of Astyanax mexicanus with 20 samples.

Results

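The neutrophil peroxidase gene mpx, the neutrophil chemotaxin gene lect2l and 5 genes of the phagocyte NADPH oxidase (cybb, cyba, ncf1, ncf4 and rac2) were followed in injured skeletal muscle of Astyanax mexicanus, a fish with a river-dwelling surface form and a blind cave form. Members were all rows of the deposited gene table whose gene name equalled 1 of these 7 names. They came to 8 rows of 27420, because mpx names 2 Ensembl identifiers, and 7 rows passed the filter on low values. The filter asked for 1 TPM in 2 or more libraries of any group. On saline libraries alone mpx, lect2l, cybb and ncf4 would not have met it, so the counts below include rows admitted through injured muscle. At 1 day after injury all 7 tested members were higher than in saline muscle in both forms. The rise passed the threshold (adjusted p below 0.05) for 6 of 7 in surface fish and 7 of 7 in cave fish. Of all tested genes 8.35% and 15.7% did so. Cave fish at that time had the highest group mean of every tested member.

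Polyadenylated RNA of skeletal muscle was sequenced in 20 libraries. Surface fish and cave fish were injected with phosphate-buffered saline as controls or with cardiotoxin, a snake venom toxin that lyses muscle fibres, and injured muscle was taken 1, 7 or 14 days post injury (dpi). In each form there were 3 saline libraries, 3 at 1 dpi, 2 at 7 dpi and 2 at 14 dpi. No day is labelled for saline libraries, which means that injured and saline muscle may differ in time after injection, and the labels name neither the age of the fish nor the cave population. All groups carry a treatment label of free-running darkness, and the series design text speaks of sampling around a daily cycle with 3 fish per time. Collection hours were not analysed here. Whether replicate libraries are different animals is not said, and the p-values below rest on library-to-library spread, which can be technical.

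Neutrophils reach damaged tissue before most other white cells. They carry myeloperoxidase, encoded by mpx in fishes, in their granules, where it turns hydrogen peroxide and chloride into hypochlorous acid. The peroxide comes from superoxide made by the phagocyte NADPH oxidase. In mammals and zebrafish a catalytic subunit (cybb) and its partner (cyba) sit in the membrane, and a cytosolic organiser (ncf1) and modulator (ncf4) join them together with the small GTPase rac2 when the cell is stimulated. The peroxidase is largely a neutrophil product, whereas the oxidase subunits are also used by macrophages, and rac2 is found across blood-forming lineages. The role of lect2l is known from its mammalian relative, a secreted chemotactic factor for neutrophils, and in zebrafish it serves as a marker of neutrophils.

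Levels are given as scaled TPM, that is TPM (transcript abundance corrected for length and library total) divided by a median-of-ratios factor for each library, and libraries are listed in the order of their replicate numbers. Levels of different genes can therefore be compared. Changes are differences of log2(scaled TPM + 1) with the standard error (SE) of a limma model over all libraries. A gene is called when its Benjamini-Hochberg adjusted p over all 16884 tested genes was below 0.05. The added 1 shrinks the changes of low genes such as mpx. Because bulk tissue was measured, more cells of a type and more RNA per cell cannot be told apart.

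Of 6 muscle markers, 5 were found by name, and all 5 were abundant in every library (the lowest value was 551 for tnnt3b and the highest 242300 for the parvalbumin pvalb4, both in scaled TPM), so the tissue label fits the data. Between 11150 and 15146 genes reached 1 TPM in a library, and replicate libraries correlated at 0.942 to 0.981. A pair of cave libraries stood apart in skin genes. The summed level of 26 rows from a skin and epithelium list was 10900 in cave 1 dpi library 3 against 866 and 1083 in libraries 1 and 2, and 2825 in cave saline library 2 against 722 and 467. In surface fish the same sum ran from 670 to 1046 in saline libraries and was 1281, 2664 and 1316 at 1 dpi. The members' calls at 1 dpi and from 1 to 7 dpi in cave fish are therefore also given without the 2 skin-rich cave libraries. Surface 1 dpi library 2 was kept in those runs. Of 25 tested skin genes 5 were then called lower in cave than in surface fish at 1 dpi, against 0 with all libraries. The forms were thus not balanced in skin genes in those runs. Median-of-ratios factors ran from 0.595 to 1.92. Without scaling, the median gene rose by 0.57 in surface fish and by 0.40 in cave fish at 1 dpi, against 0.02 and 0.04 with it.

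Surface muscle held almost no mpx under saline (0.233, 0 and 0.0555) and reached 2.97, 1.92 and 2.08 at 1 dpi. Cave muscle held 0.293, 0.155 and 0.275 under saline and 18, 18.5 and 3.24 at 1 dpi. In each form all 3 libraries at 1 dpi lay above all 3 saline libraries, and cave library 3, the skin-rich one, lay far below the other cave libraries at this time. The change was 1.59 ± 0.43 (SE; adjusted p = 0.0207) in surface fish and 3.23 ± 0.43 (adjusted p = 7.33e-05) in cave fish. The surface call was lost without 1 dpi library 1 (adjusted p = 0.0710), saline library 2 (adjusted p = 0.0560) or saline library 3 (adjusted p = 0.0514). In cave fish the change was 3.91 without both skin-rich libraries and remained called.

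The later surface libraries held 1.77 and 0.556 of mpx at 7 dpi and 0 and 0.211 at 14 dpi. In cave fish the values were 0.350 and 1.02 at 7 dpi and 0.748 and 1.05 at 14 dpi. None of these was called against saline, although both cave groups and the surface 7 dpi group lay wholly above their saline libraries. By group mean the order was cave 1 dpi (13.2 ± 8.66 SD), surface 1 dpi (2.32 ± 0.568), surface 7 dpi (1.16 ± 0.857), cave 14 dpi (0.897 ± 0.210), cave 7 dpi (0.684 ± 0.472), cave saline (0.241 ± 0.0748), surface 14 dpi (0.106 ± 0.150) and surface saline (0.0962 ± 0.122). The ranges of the surface 7 dpi, cave 14 dpi and cave 7 dpi groups overlapped their neighbours within that run, and so did the 3 lowest groups.

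Saline surface muscle held lect2l at 0.888, 1.72 and 0.765, and the 1 dpi libraries held 2.86, 5.06 and 2.82. Saline cave muscle held 0.400, 0.727 and 0.275, and the 1 dpi libraries 27.0, 28.8 and 7.74. Again cave library 3 was the lowest of its group, here still above every surface library. The change was 3.74 ± 0.41 in cave fish (adjusted p = 1.84e-05; 4.44 without the skin-rich libraries). In surface fish it was 1.1 ± 0.41 and missed the threshold (adjusted p = 0.0848), although the groups did not overlap. At 7 and 14 dpi all 8 injured libraries of the 2 forms lay between 0.331 and 1.56, within the range spanned by the saline libraries of both forms.

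The membrane subunits rose in both forms. The catalytic subunit cybb stood at 1.25, 0.941 and 0.599 in surface saline libraries and at 6.31, 6.55 and 7.38 at 1 dpi. In cave fish it stood at 0.849, 0.204 and 0.155 under saline and at 15.6, 19.6 and 12.5 at 1 dpi. The libraries at 1 dpi were close to each other within each form, the skin-rich library included. The change was 2.02 ± 0.44 in surface fish (adjusted p = 0.00682) and 3.6 ± 0.44 in cave fish (adjusted p = 3.76e-05). Its partner cyba, which stabilises the catalytic subunit, was more abundant, at 3.57, 1.92 and 2.45 in surface saline libraries and 16.6, 15.2 and 11.2 at 1 dpi. Cave values were 7.37, 3.28 and 2.12 under saline and 26.4, 26.8 and 23.6 at 1 dpi, with all 3 close together. The change of cyba was 2.08 ± 0.32 in surface fish (adjusted p = 0.000909) and 2.46 ± 0.32 in cave fish (adjusted p = 7.17e-05).

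Among the cytosolic subunits the organiser ncf1 stood at 0.670, 0.989 and 0.987 in surface saline libraries and at 9.53, 10.4 and 3.87 at 1 dpi. In cave fish it stood at 1.81, 1.02 and 1.55 under saline and at 23.8, 20.1 and 8.42 at 1 dpi. In both forms library 3 held much less than the other 1 dpi libraries, yet all lay above saline. The change was 2.16 ± 0.50 (adjusted p = 0.00985) in surface fish and 2.80 ± 0.50 (adjusted p = 0.000848) in cave fish.

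The modulator ncf4 was the least abundant oxidase gene at 1 dpi. Its surface values were 0.670, 0.655 and 0.865 under saline and 2.09, 2.59 and 1.82 at 1 dpi, a change of 0.87 ± 0.20 (adjusted p = 0.00872). Its cave values were 1.03, 0.814 and 0.896 under saline and 5.35, 7.06 and 3.48 at 1 dpi, a change of 1.68 ± 0.20 (adjusted p = 3.06e-05).

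The GTPase rac2 was by far the most abundant member, also in uninjured muscle. Surface fish held 14.6, 22.1 and 16.8 under saline and 70.5, 80.7 and 53.9 at 1 dpi, and cave fish 27.2, 22.3 and 12.3 under saline and 137, 160 and 172 at 1 dpi. The skin-rich cave library was here the highest of its group. The change was 1.88 ± 0.36 in surface fish (adjusted p = 0.00299) and 2.93 ± 0.36 in cave fish (adjusted p = 3.74e-05).

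**Figure D1:**
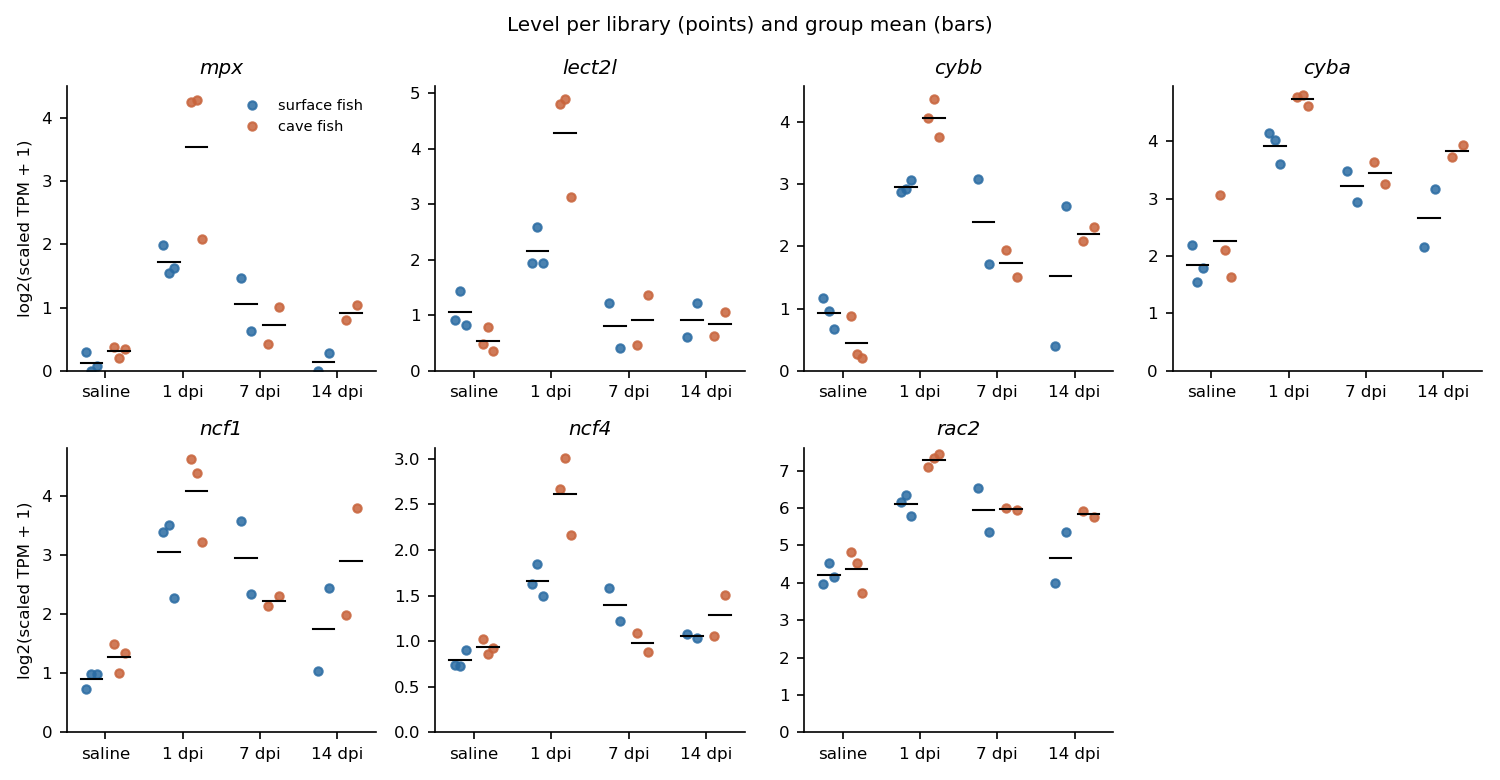
Level of 7 members (the mpx row that passed the filter is shown) in each library, as log2(scaled TPM + 1), by injury stage on the horizontal axis; points are libraries, bars are group means, blue is surface fish and orange is cave fish. Cave 1 dpi libraries are the highest group in every panel, and 1 of the 3 lies well below the others for mpx, lect2l and ncf1.

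At 1 dpi, 6 of 7 tested members were called higher in surface fish and 7 of 7 in cave fish. Of all tested genes 8.35% were called higher in surface fish and 15.7% in cave fish. The median change of the members was 1.88 in surface fish and 2.93 in cave fish, against 0.02 and 0.04 for all genes. Over all genes the calls in surface fish were 1410 higher and 1082 lower, against 5783 and 190 without scaling. In cave fish they were 2659 and 1532, against 4307 and 219 without scaling and 2131 and 2011 with quantile normalization. All 7 members were called in both forms without scaling, and the counts were 6 and 7 with quantile normalization. Deviations from the group mean correlated weakly between surface saline and surface 1 dpi libraries of the same number (r of 0.137, 0.108 and 0.235). With the replicate number as a block within these 2 groups 4 of 7 members were called, ncf1 (adjusted p = 0.0651) and ncf4 (adjusted p = 0.0825) being lost. Over all genes 184 were called in either direction in that run, against 2492 in the main result. With the block in the model of all libraries 7 of 7 were called. Without the skin-rich libraries all 7 members were called in cave fish, with changes of 3.91 for mpx, 4.44 for lect2l, 3.66 for cybb, 2.43 for cyba, 3.09 for ncf1, 1.87 for ncf4 and 2.94 for rac2.

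At 7 dpi the membrane and cytosolic oxidase genes lay above saline in surface fish, while lect2l did not. Called were rac2 (92.6 and 39.9; 1.74 ± 0.40, adjusted p = 0.0255), cyba (10.2 and 6.70; 1.37 ± 0.36, adjusted p = 0.0445) and ncf1 (10.9 and 4.09; 2.06 ± 0.56, adjusted p = 0.0496). The level of cybb was 7.44 and 2.27 (1.46 ± 0.49, adjusted p = 0.101) and that of ncf4 was 1.99 and 1.34 (0.61 ± 0.22, adjusted p = 0.124). In all 5 genes library 1 held more than library 2. The count of 3 of 7 members compares with 3.11% of all genes called higher. Without surface 7 dpi library 1 no member was called (adjusted p of 0.320 for rac2, 0.344 for cyba and 0.413 for ncf1). The cyba call was lost without any 1 of the 5 libraries compared (adjusted p of 0.0524 to 0.344). That of ncf1 was also lost without saline library 1 (0.108), 2 (0.0841) or 3 (0.0862), and that of rac2 without saline library 1 (0.0662) or 3 (0.0579).

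In cave fish at 7 dpi only rac2 was called (63.3 and 61.0; 1.62 ± 0.40, adjusted p = 0.0245), 1 of 7 members against 5.36% of all genes called higher. This call was lost without 7 dpi library 1 (adjusted p = 0.147) or 2 (0.152), without saline library 3 (0.0876) and without the skin-rich libraries (0.0531). The other oxidase subunits were at 11.5 and 8.49 for cyba (1.18 ± 0.36, adjusted p = 0.0596; 0.0150 without saline library 1), 2.86 and 1.83 for cybb (1.27 ± 0.49, adjusted p = 0.125), 3.44 and 3.95 for ncf1 (0.94 ± 0.56, adjusted p = 0.329) and 1.13 and 0.843 for ncf4 (0.05 ± 0.22, adjusted p = 0.935). All but ncf4 lay wholly above the saline libraries.

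At 14 dpi 3 oxidase genes were called in cave fish and none in surface fish, and the difference between the forms was not called for any member. In cave fish cyba (12.3 and 14.3; 1.57 ± 0.36, adjusted p = 0.0179), cybb (3.26 and 3.96; 1.75 ± 0.49, adjusted p = 0.0368) and rac2 (59.3 and 53.5; 1.48 ± 0.40, adjusted p = 0.0309) were called, 3 of 7 members against 6.22% of all genes called higher. The level of ncf1 was 2.99 and 12.9 (1.61 ± 0.56, adjusted p = 0.0765; 0.0329 without 14 dpi library 1) and that of ncf4 was 1.08 and 1.84 (0.35 ± 0.22, adjusted p = 0.331). None of the 3 calls was held when either 14 dpi library was left out (adjusted p of 0.0536 and 0.0921 for cyba, 0.105 and 0.165 for cybb, 0.128 and 0.104 for rac2, without library 1 and library 2), and 0 of 7 members were called without the skin-rich libraries. The saline libraries mattered as well: without library 1, 2 or 3 the adjusted p of cybb was 0.0518, 0.0841 and 0.0942, without library 2 or 3 that of rac2 was 0.0543 and 0.101, and without library 3 that of cyba was 0.0562.

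In surface fish at 14 dpi the libraries disagreed. Library 1 held cybb at 0.319, ncf1 at 1.06, cyba at 3.46 and rac2 at 15, close to or below saline, and library 2 held 5.27, 4.45, 7.99 and 40.0 of the same genes. The levels of ncf4 were 1.11 and 1.04. limma called 0 of 7 members (1 at an unadjusted p below 0.05), and 0% of all genes were called higher at this stage. Over all genes 0 were called in either direction, with 1593 at an unadjusted p below 0.05.

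**Figure D2:**
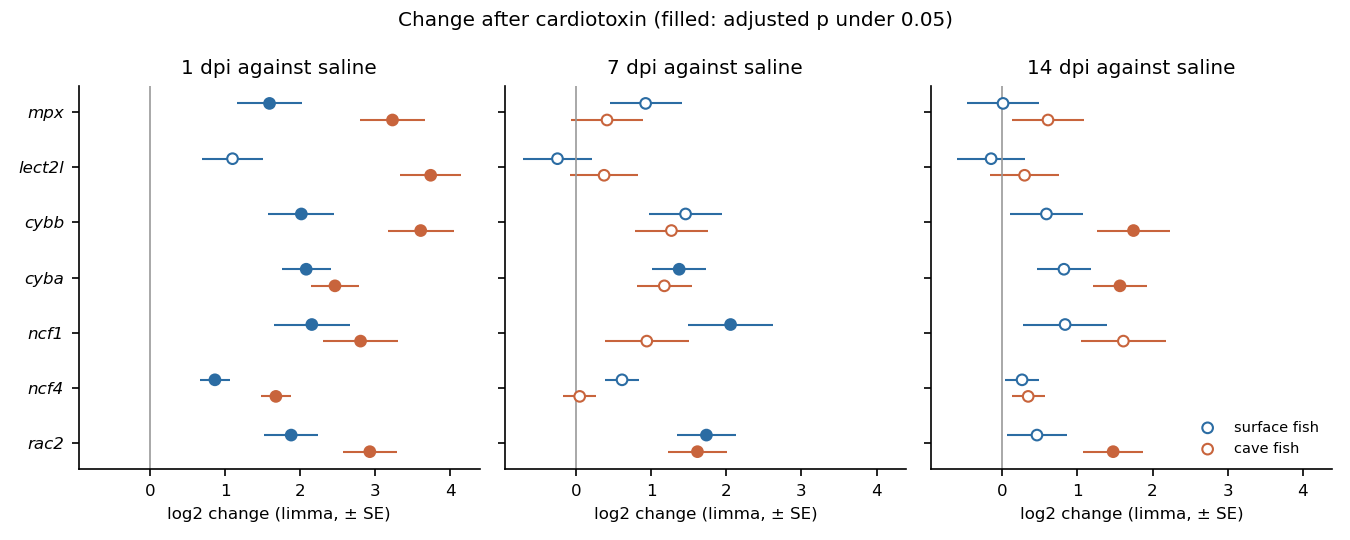
Change of each member against the saline libraries of its form at 1, 7 and 14 dpi, as the limma log2 change with its SE as a horizontal line; blue is surface fish, orange is cave fish, and filled points have an adjusted p below 0.05. All 7 members are filled in cave fish at 1 dpi and 6 in surface fish; at 14 dpi cyba, cybb and rac2 are filled, in cave fish.

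The forms were then compared with each other at each stage. Under saline, limma called 0 of 7 members (0 at an unadjusted p below 0.05), where 8.74% of all genes were called in either direction. At 1 dpi every member was higher in cave fish, and the ranges of the 2 forms were apart for 6 of them, ncf1 being the exception. Called were lect2l (2.12 ± 0.41, adjusted p = 0.00396), ncf4 (0.96 ± 0.20, adjusted p = 0.00598), mpx (1.82 ± 0.43, adjusted p = 0.0128) and rac2 (1.19 ± 0.36, adjusted p = 0.0411), 4 of 7 members against 7.07% of all genes called higher. Not called were cybb (1.11 ± 0.44, adjusted p = 0.118), cyba (0.81 ± 0.32, adjusted p = 0.123) and ncf1 (1.03 ± 0.50, adjusted p = 0.213). With the replicate number as a block within these 2 groups none of the 7 was called, with adjusted p of 0.0764 for lect2l, 0.0835 for ncf4, 0.141 for mpx and 0.0814 for rac2. Over all genes 203 were called in either direction in that run, against 1964 in the main result. Deviations from the group mean correlated at 0.102, -0.274 and -0.225 between libraries of the same number in these 2 groups. With only these 2 groups in the model 4 of 7 were again called, but mpx (0.106) and ncf4 (0.0536) were lost and cybb (0.0173) and cyba (0.0319) gained. When single libraries were left out, lect2l and ncf4 were called in each case. That of mpx was lost without cave 1 dpi library 1 (adjusted p = 0.0595) or 2 (adjusted p = 0.0697), and that of rac2 without any 1 of the 6 libraries (adjusted p of 0.0635 to 0.136). Without the skin-rich libraries mpx differed by 2.55, lect2l by 2.69 and ncf4 by 1.18, all 3 called, and rac2 by 1.12 (adjusted p = 0.129).

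At 7 dpi limma called 0 of 7 members between the forms (0 at an unadjusted p below 0.05), against 4.56% of all genes in either direction. At 14 dpi it called 0 of 7 (2 at an unadjusted p below 0.05), against 12.2% of all genes in either direction. Leaving out 1 library at 14 dpi left 1 library in its group, and the counts of members and of all genes called both changed between such runs.

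Whether the response itself differed was tested as an interaction, the cave change from saline minus the surface change. At 1 dpi this difference was above 0 for all 7 members, largest for lect2l (2.64 ± 0.58, adjusted p = 0.102), mpx (1.64 ± 0.60, adjusted p = 0.402) and cybb (1.59 ± 0.62, adjusted p = 0.435), and limma called 0 of 7 (4 at an unadjusted p below 0.05). Of all genes 0.113% were called. Without cave 1 dpi library 3, which held the least of both genes in its group, the difference was 3.21 for lect2l and 2.36 for mpx. Both had an adjusted p of 0.00490 in limma. Of 12 runs with 1 library left out, each gene was called in this 1 alone (adjusted p up to 0.294 for lect2l and 0.65 for mpx). Without both skin-rich libraries it was 3.33 (adjusted p = 0.0122) and 2.31 (adjusted p = 0.0169). At 7 dpi the interaction called 0 of 7 members (0 at an unadjusted p below 0.05; 0.0474% of all genes), and at 14 dpi 0 of 7 (0 at an unadjusted p below 0.05; 0.0296% of all genes).

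Cave fish lost much of the 1 dpi level by 7 dpi. All 7 members were called lower at 7 dpi than at 1 dpi in cave fish, with 5.31% of all genes called lower, and no ranges overlapped. The calls furthest below the threshold were those of lect2l (-3.36 ± 0.46, adjusted p = 0.000378), mpx (-2.82 ± 0.48, adjusted p = 0.00191), cybb (-2.33 ± 0.49, adjusted p = 0.00785) and ncf4 (-1.63 ± 0.22, adjusted p = 0.000378). Closer to it were ncf1 (-1.86 ± 0.56, adjusted p = 0.0487), rac2 (-1.31 ± 0.40, adjusted p = 0.0499) and cyba (-1.29 ± 0.36, adjusted p = 0.0367). The calls of cyba and rac2 were lost without any 1 of the 5 libraries (adjusted p of 0.0609 to 0.258 and of 0.0730 to 0.231), that of ncf1 without any but cave 1 dpi library 3 (up to 0.238), and that of cybb without 7 dpi library 2 (0.0998). In those runs lect2l, mpx and ncf4 were called each time, but mpx was lost with only the compared groups in the model (adjusted p = 0.0948). Without the skin-rich libraries 5 of 7 were called, mpx at -3.54, lect2l at -3.94, cybb at -2.49, ncf1 at -2.29 and ncf4 at -1.85, whereas cyba (-1.34, adjusted p = 0.0742) and rac2 (-1.24, adjusted p = 0.131) were not.

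In surface fish limma called 0 of 7 members lower at 7 dpi than at 1 dpi (1 at an unadjusted p below 0.05), and 2.19% of all genes. Here rac2 (-0.15 ± 0.40), ncf1 (-0.10 ± 0.56), ncf4 (-0.25 ± 0.22) and cybb (-0.56 ± 0.49) had overlapping ranges at the 2 stages, with 7 dpi library 1 above library 2 for each, while lect2l (-1.35 ± 0.46), mpx (-0.67 ± 0.48) and cyba (-0.71 ± 0.36) lay wholly below their 1 dpi range. With the replicate number as a block over all libraries lect2l was called (-1.57, adjusted p = 0.0383). The difference between the forms in this step, a contrast chosen after the values were seen, was -2.15 ± 0.68 for mpx (adjusted p = 0.426), -2.02 ± 0.65 for lect2l (adjusted p = 0.438) and -1.37 ± 0.31 for ncf4 (adjusted p = 0.135). limma called 0 of 7 members (5 at an unadjusted p below 0.05) and 0.113% of all genes. Without cave 1 dpi library 3 it called mpx (-2.88, adjusted p = 0.00238), ncf4 (-1.60, adjusted p = 0.0235) and lect2l (-2.59, adjusted p = 0.0406). These genes were called in no other run with 1 library left out. Without both skin-rich libraries it called mpx and ncf4 (adjusted p of 0.00458 and 0.0376).

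From 7 to 14 dpi limma called 0 of 7 members in surface fish (1 at an unadjusted p below 0.05; 1.96% of all genes in either direction) and 0 of 7 in cave fish (0 at an unadjusted p below 0.05; 0.0474% of all genes).

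The peroxidase and the oxidase were set beside markers of the cells that carry them. Of 7 neutrophil markers 6 were found by name. These names covered 9 rows, of which 1 was at 0 in every library and 5 passed the filter. The lysozyme gene lyz followed mpx in cave fish at 1 dpi, at 24.1, 17.2 and 1.03, while in surface fish it was 1.09, 0.739 and 0.375 at 1 dpi and 2.36, 0 and 2.23 under saline. In surface fish, then, mpx lay above its saline range at 1 dpi while lyz overlapped its own. The gelatinase gene mmp9 was high in both forms at 1 dpi, at 73.9, 55.9 and 57.4 in surface fish and 151, 141 and 29.9 in cave fish, again lowest in the skin-rich library. The granulocyte growth factor receptor gene csf3r was at 14.5, 20.7 and 11.4 in surface fish and 25.9, 31.6 and 21.9 in cave fish, with a smaller drop. The defining marker npsn, a granule protease of fish neutrophils, was near 0 throughout (at most 0.813), and the chemokine receptor gene cxcr2 reached at most 1.24. In cave 1 dpi library 3 mpx, lect2l, ncf1, lyz and mmp9 were thus far below the other libraries of the group. Also lowest there, but by less, were ncf4 (3.48 against 5.35 and 7.06), cybb (12.5 against 15.6 and 19.6), cyba and csf3r. Only rac2 of the members was highest there. The part of skin tissue in this was not tested.

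**Figure D3:**
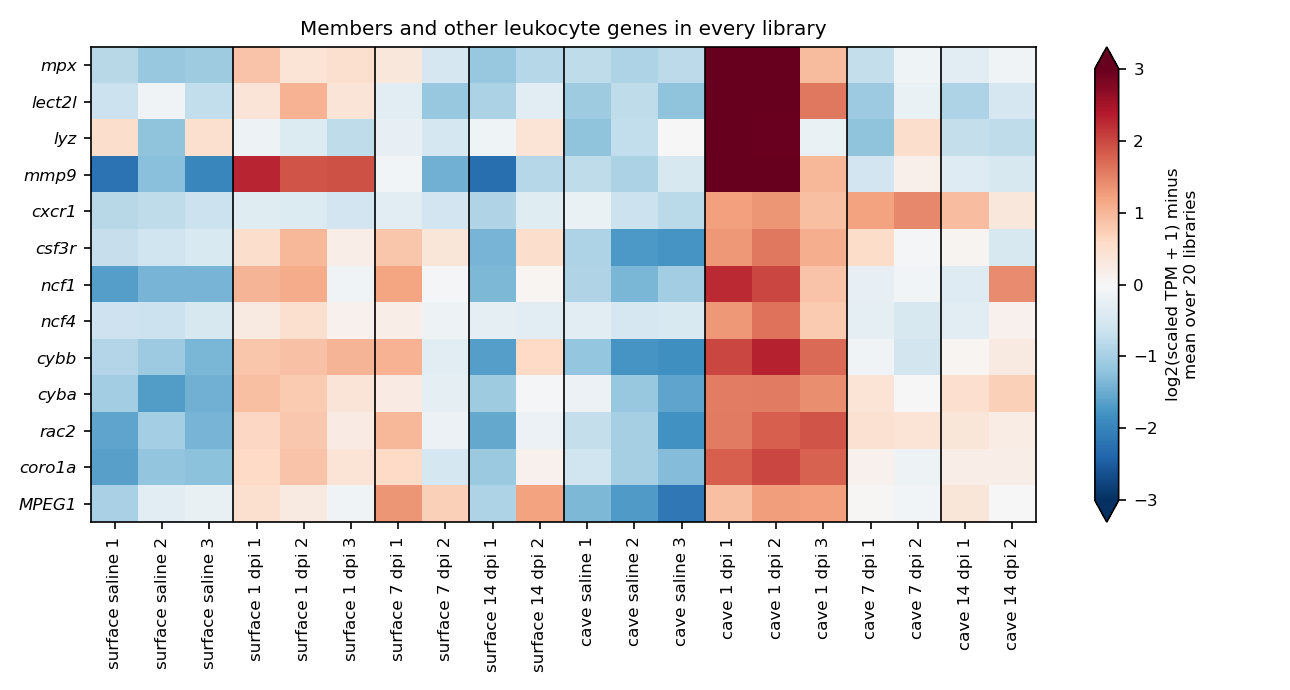
Members and other leukocyte genes (rows) in all 20 libraries (columns, grouped by form and stage), as log2(scaled TPM + 1) minus the row's mean over libraries; red is above and blue is below that mean, and colours stop at 3 in either direction. The columns for cave 1 dpi libraries 1 and 2 are dark red for mpx, lect2l, lyz and mmp9, whereas library 3 is not; rac2, cyba and coro1a have similar red in all 3.

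The list of neutrophil granule, receptor and transcription factor genes had 28 tested rows. At 1 dpi 12 were called higher in surface fish (median change 0.88) and 20 higher and 1 lower in cave fish (median 2.0). Among them were the membrane protease gene adam8a (4.1 and 4.75), alox5ap of leukotriene synthesis (2.42 and 3.50) and cebp1, a myeloid transcription factor of fishes (1.90 and 2.94), in surface and cave fish. Between the forms 11 of 28 were called higher in cave fish at 1 dpi, beside 7.07% of all genes. The count between the forms was 2 with the block within the compared groups, where 203 of all genes were called in either direction. It was 11 without the skin-rich libraries. Against saline the shares of all genes called higher at 1 dpi were 8.35% in surface fish and 15.7% in cave fish. With the block within the compared surface groups, where 184 of all genes were called in either direction, 5 of 28 were called higher, and without the skin-rich libraries 19 of 28 in cave fish. In surface fish alox5ap was called under every alternative but the block within the compared groups (adjusted p = 0.0548), and so was cebp1 (adjusted p = 0.0501).

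Genes of macrophages and of white cells at large were counted in the same way, beside the same shares of all genes called higher at 1 dpi, 8.35% in surface and 15.7% in cave fish. Of 23 tested macrophage genes, 12 were called higher and 1 lower in surface fish at 1 dpi (median 1.08), and 17 higher in cave fish (median 2.01). The transcription factor gene irf8 changed by 2.11 and 2.01 and the macrophage growth factor gene csf1a by 1.70 and 2.46. The pore-forming protein gene MPEG1, a macrophage marker, stood at 12.8, 20.7 and 22.0 in surface saline libraries and 36.7, 31.3 and 24.1 at 1 dpi (0.72 ± 0.40, adjusted p = 0.260), and in cave fish at 9.65, 7.34 and 5.07 and then 49.4, 63.0 and 61.8 (2.85 ± 0.40, adjusted p = 0.000118). Of 21 tested genes of any leukocyte, 13 were called higher in surface fish (median 1.14) and 20 in cave fish (median 1.91), among them coro1a, an actin-binding protein of white cells (1.97 and 2.82), plek (2.44 and 3.4) and myo1g (1.17 and 2.46). With the block within the compared surface groups 2 macrophage genes and 4 genes of any leukocyte were called higher at 1 dpi, and irf8 (adjusted p = 0.0732), csf1a (adjusted p = 0.0595) and myo1g (adjusted p = 0.0503) were not. Without the skin-rich libraries 14 macrophage genes and 19 genes of any leukocyte were called higher in cave fish. At 7 dpi 5 of 23 macrophage genes were called higher in surface fish and 13 of 23 in cave fish. In the neutrophil list 3 of 28 and 8 of 28 were called higher, and of all genes 3.11% and 5.36%. At 14 dpi in cave fish 12 of 23 macrophage genes were called higher. In the neutrophil list 5 of 28 were then called higher and 1 lower, and 6.22% of all genes were called higher. For all lists these are counts and medians without a test of the list.

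Within a library, the scaled TPM of mpx and cybb was set as a percentage of that of MPEG1. For mpx this ratio ran from 0.00 to 1.82% in surface saline libraries, was 8.10, 6.12 and 8.66% at 1 dpi, and ran from 1.29 to 2.67% at 7 dpi and from 0.00 to 0.344% at 14 dpi. In cave fish it ran from 2.11 to 5.42% under saline, was 36.4, 29.3 and 5.24% at 1 dpi, and ran from 1.31 to 4.14% at 7 dpi and from 2.22 to 4.06% at 14 dpi. The surface 1 dpi libraries and cave libraries 1 and 2 lay above all others of their form, and the skin-rich cave library 3 lay inside the range of cave saline libraries. Against coro1a, mpx ran from 0.00 to 1.29% in surface saline libraries and from 1.81 to 3.35% at 1 dpi, and in cave fish from 0.539 to 1.2% under saline and to 8.88, 7.81 and 1.62% at 1 dpi. At 7 and 14 dpi the ratio to coro1a ran from 1.40 to 2.0% and from 0.00 to 0.331% in surface fish and from 0.548 to 1.94% and from 1.11 to 1.56% in cave fish, so the 1 dpi ranges overlapped those at 7 dpi in both forms.

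For cybb the ratio to MPEG1 ran from 17.2 to 30.7% in surface and from 20.2 to 31.7% in cave fish at 1 dpi, above all other libraries of the form. Those ran from 2.72 to 9.77% under saline, 5.26 to 11.2% at 7 dpi and 2.41 to 8.57% at 14 dpi in surface fish, and from 2.77 to 8.80%, 7.45 to 10.7% and 9.70 to 15.4% in cave fish. Against coro1a, cybb ran from 6.18 to 9.49% in surface fish at 1 dpi, overlapping saline (2.46 to 6.93%), 7 dpi (5.72 to 8.41%) and 14 dpi (1.22 to 8.24%). In cave fish it ran from 6.25 to 8.27% at 1 dpi, above saline (0.680 to 2.23%), 7 dpi (3.48 to 4.48%) and 14 dpi (4.86 to 5.91%). These are values within libraries, with no test, and with mpx near 0 in saline libraries they carry the error of very low levels.

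**Figure D4:**
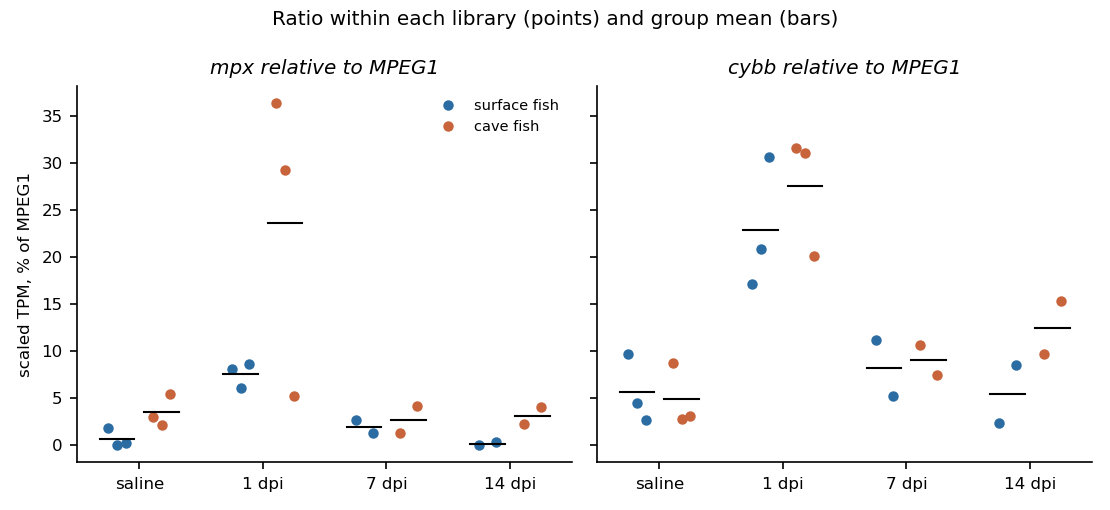
Scaled TPM of mpx (left) or cybb (right) as a percentage of that of the macrophage gene MPEG1 in the same library, by stage; points are libraries, bars are group means, blue is surface fish and orange is cave fish. For cybb the 1 dpi libraries lie above all others of their form; for mpx so do the surface 1 dpi libraries and 2 of the 3 cave ones, the other lying at 5.24%, inside the range of cave saline libraries.

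The partners of the oxidase were followed in a list of 31 symbols, of which 20 rows were tested. At 1 dpi 11 were called higher in surface fish (median 0.65) and 15 in cave fish (median 0.99), and no partner was called lower in either form, beside 8.35% and 15.7% of all genes called higher. With the block within the compared surface groups 1 of 20 was called, and prkcdb (adjusted p = 0.0546) and rac1a (adjusted p = 0.0730) were not, while without the skin-rich libraries 11 of 20 were called in cave fish. These included cybc1, the chaperone that in mammals is needed for the membrane subunits (0.764 ± 0.227 SD under saline to 3.91 ± 0.450 in surface fish, n = 3 each; 0.808 ± 0.259 to 7.20 ± 1.33 in cave fish). The kinase gene prkcdb, whose family phosphorylates the organiser, changed by 1.31 ± 0.22 in surface and 2.05 ± 0.22 in cave fish. The broadly expressed relative of rac2, rac1a, changed by 0.82 and 0.50; its cave call was lost without saline library 3 (adjusted p = 0.0602) and without the skin-rich libraries (adjusted p = 0.0876). Between the forms at 1 dpi 8 of 20 were called higher in cave fish, beside 7.07% of all genes. Among the 8 were cybc1 (0.73 ± 0.20, adjusted p = 0.0259) and prkcdb (0.79 ± 0.22, adjusted p = 0.0280). Both calls were lost when single libraries were left out (4 and 6 of 6 cases). Of the 20 rows, 0 were called between the forms without the skin-rich libraries and 0 with the block within the compared groups. In the run with that block 203 of all genes were called in either direction. This count was 1 with unscaled TPM and 8 with quantile normalization. From 1 to 7 dpi 8 of 20 were called lower in cave fish, including cybc1 (-1.63 ± 0.22, adjusted p = 0.000371), and 4 of 20 in surface fish. Of all genes 5.31% were called lower in this step in cave fish and 2.19% in surface fish.

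Genes of a list for peroxide and superoxide handling were counted in the same way. At 1 dpi 1082 of all 16884 tested genes were called lower in surface fish and 1532 in cave fish. The median change of all genes was 0.02 and 0.04. Of 34 tested rows 6 were called higher and 3 lower in surface fish at 1 dpi (median 0.09), and 8 higher and 3 lower in cave fish (median 0.05), beside 8.35% and 15.7% of all genes called higher. Without scaling the counts were 17 higher and 1 lower in surface fish and 11 higher in cave fish. With the block within the compared surface groups they were 2 and 1, and gpx1b was not called (adjusted p = 0.0529). The glutathione peroxidase gene gpx1b changed by 2.95 and 2.54, and the heme oxygenase gene hmox1a by 2.24 and 4.15. The glutathione reductase gene gsr was called in cave fish (1.59 ± 0.21, adjusted p = 6.42e-05) and not in surface fish (0.49 ± 0.21, adjusted p = 0.127). Of 4 tested genes of other heme peroxidases, limma called 1, ptgs1 of prostaglandin synthesis, in cave fish (0.90 ± 0.24, adjusted p = 0.0137), a call lost without saline library 3 (adjusted p = 0.0754) or 1 dpi library 2 (adjusted p = 0.0622).

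Markers of other tissues are given beside these results. At 1 dpi 1082 of all 16884 tested genes were called lower in surface fish and 1532 in cave fish. Of 20 tested muscle genes 13 were called lower in surface fish at 1 dpi and 5 in cave fish. Without scaling these counts were 9 and 0, with quantile normalization 4 and 3, and with the block within the compared groups 0 and 2. Their summed level was 357200 to 518500 in surface saline libraries and 51980 to 275100 at 1 dpi, and 245600 to 372800 and then 119300 to 185500 in cave fish. The erythrocyte sum over 13 rows was 475, 326 and 90.3 in surface 1 dpi libraries and at most 133 in cave libraries, with 1 of 5 defining markers found by name. Of 10 tested erythrocyte genes 1 was called higher in surface fish at 1 dpi and 2 in cave fish, and without scaling 8 and 2. Of 25 tested skin genes 2 were called higher in surface fish at 1 dpi and 1 in cave fish, shares below the 8.35% and 15.7% of all genes. Their median change was nevertheless 0.96 in surface and 0.77 in cave fish, against 0.02 and 0.04 for all genes. From 1 to 7 dpi their median change was -1.57 and -1.12, against 0.01 and -0.03 for all genes. The part of these tissues in the members' changes was not tested.

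Over the 8 group means of log2(scaled TPM + 1) the members shared 1 pattern in different degrees, given here as a description of groups that share libraries' scaling. Pearson's r was 0.98 between mpx and ncf4, 0.94 between mpx and lect2l, 0.97 between cyba and rac2 and 0.96 between ncf1 and cybb. It was lowest for lect2l with ncf1 (0.72), cyba (0.72) and rac2 (0.74). Among genes with a symbol outside the set, those most like mpx over the 8 means were hnrnpa1a (r = 0.99), lima1a (0.99), tprg1 (0.99), tnfrsf1a (0.99) and atp6v0d1 (0.98). This r compares the shape and not the size of changes. From cave saline to cave 1 dpi the mean of hnrnpa1a went from 117 to 163, and that of mpx from 0.241 to 13.2. Those most like cybb were atp6v1ba (0.99), si:dkey-185m8.2 (0.99), hmox1a (0.99), actr2a (0.98) and ptk2ba (0.98). Each group of 5 held 1 subunit gene of the proton-pumping vacuolar ATPase, atp6v0d1 for mpx and atp6v1ba for cybb, which was not tested.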

How the data were processed

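RNA sequencing values were available as 1 gene table of TPM (length-corrected transcript abundance per library total), deposited by the authors. Per the submitters' processing notes STAR 2.7.3a and RSEM 1.3.0 were used. Genome build, annotation and strand setting were not given in the sources used here. TPM keeps no read depth, so depth is unknown and no counting interval was computed. Per the labels' protocols, libraries were stranded and read as short single reads.

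Of the 27420 genes, 16884 reached 1 TPM in 2 or more libraries and were tested; 2876 were listed at 0 throughout. Each library was scaled by its median-of-ratios factor over 9467 genes at 1 TPM or more in all 20 libraries. Then log2(scaled TPM + 1) was fitted with limma 3.58.1 in R 4.3.3, with 1 mean per form and stage, 12 residual degrees of freedom and a mean-variance trend; p-values were Benjamini-Hochberg adjusted over all genes (threshold 0.05). The fit was tested on simulated data. The members, lists and tests were chosen with earlier results of these data known. Named list genes were up to 4 per list and 1 dpi comparison with the smallest adjusted p; MPEG1 and coro1a were fixed references, and lyz, mmp9, csf3r, npsn and cxcr2 are from the marker list. For mpx and cybb the 5 most similar genes by Pearson's r were named. Genes sharing a symbol were kept apart by identifier. A planned description of promoter motifs was not run. Some genes of the lists are not reported here by name.

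Replicate numbers in the titles were checked for pairing by the correlation of deviations from the group means. Over 62 pairs of libraries with the same number the median was 0.0288, and over 112 with different numbers -0.0178. Same-number pairs of different forms were above 0 for cave saline with surface 1 dpi (0.104, 0.227 and 0.0256) and for the saline groups (0.0964, 0.202 and 0.00295). Pairs with cave 1 dpi libraries were mostly below 0. Between surface saline and surface 1 dpi libraries all 3 same-number pairs were above 0.1 (0.137, 0.108 and 0.235), so pairs above 0 were not particular to this comparison. The main model held no pairing, so the main changes, SEs and calls of this comparison are unpaired. Pairing entered only through the alternative runs with the replicate number as a block. What might link libraries of equal number is not stated for these samples. The tests were repeated with unscaled TPM, a mean of at least 5 TPM, a pseudocount of 0.1, no filter, quantile normalization, only the compared groups, the replicate block and each library left out, and, chosen after the values were seen, the block within the compared groups and the removal of 2 skin-rich cave libraries. Ratios within libraries were taken on scaled TPM with nothing added, because with mpx near 0 differences of log2(scaled TPM + 1) can be ordered by the added 1; this too was chosen after the values were seen.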

Additional observations from a re-analysis of the deposited data

Results flagged for a closer look

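The second row named mpx (ENSAMXG00000018520) stayed below the filter and entered no comparison, and it was singled out because it had signal in injured muscle and was listed at 0 in all 6 saline libraries. It was above 0 in 6 of 20 libraries: at 0.166, 0.237 and 0.520 scaled TPM in surface 1 dpi libraries, at 0.116 and 0.144 in cave 1 dpi libraries 2 and 3, and at 0.143 in surface 7 dpi library 1. Its highest level was 0.520, in surface fish, whereas the other mpx row was highest in cave fish (18.5). No test is given for this row, since it was singled out by these same values. Reads of 2 similar genes can be divided between them by the estimation of TPM, so levels of each row are uncertain.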

How the results depend on the processing

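In cave fish at 1 dpi 7 members were called under every alternative run and with any library left out, except that a mean of at least 5 TPM leaves 5 members to test, of which 5 were called (4 of 5 in surface fish). With a mean of at least 5 TPM, the members called numbered 2 (1 in the main result) for cave 7 dpi against saline and 2 (4) for cave against surface 1 dpi. With no filter, the members called numbered 4 (7 in the main result) for cave 7 dpi against 1 dpi and 1 (3) for surface 7 dpi against saline. With only the compared groups in the model, the members called numbered 0 (3 in the main result) for cave 14 dpi against saline, 0 (1) for cave 7 dpi against saline and 0 (3) for surface 7 dpi against saline. With a pseudocount of 0.1, the members called numbered 4 (7 in the main result) for cave 7 dpi against 1 dpi. With unscaled TPM, the members called numbered 0 (3 in the main result) for cave 14 dpi against saline, 0 (1) for cave 7 dpi against saline, 1 (0) for cave against surface 14 dpi and 1 (0) for surface 14 dpi against 7 dpi. Without the skin-rich cave libraries, the members called numbered 0 (3 in the main result) for cave 14 dpi against saline, 0 (1) for cave 7 dpi against saline, 2 (0) for the form difference from 1 to 7 dpi and 2 (0) for the interaction at 1 dpi. With the replicate block within the compared groups, the members called numbered 0 (4 in the main result) for cave against surface 1 dpi. With the replicate block over all libraries, the members called numbered 1 (3 in the main result) for cave 14 dpi against saline, 1 (0) for surface 7 dpi against 1 dpi and 1 (3) for surface 7 dpi against saline. Leaving out libraries in turn, the members called ran from 0 to 2 for cave 14 dpi against saline, 3 to 5 for cave 7 dpi against 1 dpi, 0 to 2 for cave 7 dpi against saline, 0 to 3 for cave against surface 14 dpi and 2 to 3 for cave against surface 1 dpi. When each library was dropped, the members called ran from 0 to 3 for the form difference from 1 to 7 dpi, 0 to 1 for the interaction at 14 dpi, 0 to 2 for the interaction at 1 dpi, 0 to 2 for surface 14 dpi against 7 dpi and 0 to 2 for surface 7 dpi against saline. With a mean of at least 5 TPM, the genes called numbered 0 (8 in the main result) for cave 14 dpi against 7 dpi, 1128 (1703) for cave 14 dpi against saline, 2683 (4191) for cave 1 dpi against saline and 1277 (2053) for cave against surface 14 dpi. In that setting, the genes called numbered 1109 (1964) for cave against surface 1 dpi, 318 (770) for cave against surface 7 dpi, 762 (1475) for cave against surface saline and 0 (19) for the form difference from 1 to 7 dpi. There, the genes called numbered 12 (5) for the interaction at 14 dpi, 1 (19) for the interaction at 1 dpi, 1 (8) for the interaction at 7 dpi and 4 (0) for surface 14 dpi against saline. With no filter, the genes called numbered 39 (8 in the main result) for cave 14 dpi against 7 dpi, 42 (19) for the form difference from 1 to 7 dpi, 19 (5) for the interaction at 14 dpi and 32 (19) for the interaction at 1 dpi. Under the same setting, the genes called numbered 29 (8) for the interaction at 7 dpi and 15 (0) for surface 14 dpi against saline. With only the compared groups in the model, the genes called numbered 0 (8 in the main result) for cave 14 dpi against 7 dpi, 0 (1703) for cave 14 dpi against saline, 24 (2053) for cave against surface 14 dpi and 215 (770) for cave against surface 7 dpi. In that setting, the genes called numbered 592 (1475) for cave against surface saline, 2 (5) for the interaction at 14 dpi, 30 (19) for the interaction at 1 dpi and 14 (8) for the interaction at 7 dpi. There, the genes called numbered 0 (331) for surface 14 dpi against 7 dpi, 1098 (2492) for surface 1 dpi against saline, 69 (741) for surface 7 dpi against 1 dpi and 13 (775) for surface 7 dpi against saline. With a pseudocount of 0.1, the genes called numbered 1 (8 in the main result) for cave 14 dpi against 7 dpi, 4 (19) for the form difference from 1 to 7 dpi, 7 (19) for the interaction at 1 dpi and 2 (8) for the interaction at 7 dpi. Under the same setting, the genes called numbered 12 (0) for surface 14 dpi against saline. With unscaled TPM, the genes called numbered 518 (1703 in the main result) for cave 14 dpi against saline, 564 (1246) for cave 7 dpi against saline, 500 (770) for cave against surface 7 dpi and 948 (1475) for cave against surface saline. In that setting, the genes called numbered 33 (19) for the form difference from 1 to 7 dpi, 2 (5) for the interaction at 14 dpi, 1329 (331) for surface 14 dpi against 7 dpi and 5973 (2492) for surface 1 dpi against saline. Without the skin-rich cave libraries, the genes called numbered 916 (1703 in the main result) for cave 14 dpi against saline, 2606 (4191) for cave 1 dpi against saline, 751 (1246) for cave 7 dpi against saline and 1262 (1964) for cave against surface 1 dpi. There, the genes called numbered 36 (19) for the form difference from 1 to 7 dpi. With the replicate block within the compared groups, the genes called numbered 2053 (4191 in the main result) for cave 1 dpi against saline, 203 (1964) for cave against surface 1 dpi, 179 (1475) for cave against surface saline and 184 (2492) for surface 1 dpi against saline. With the replicate block over all libraries, the genes called numbered 12 (19 in the main result) for the form difference from 1 to 7 dpi and 12 (19) for the interaction at 1 dpi. With quantile normalization, the genes called numbered 2 (5 in the main result) for the interaction at 14 dpi. With 1 library left out, the genes called ran from 2 to 191 for cave 14 dpi against 7 dpi, 767 to 963 for cave 14 dpi against saline, 451 to 1287 for cave 7 dpi against 1 dpi, 159 to 758 for cave 7 dpi against saline and 488 to 2384 for cave against surface 14 dpi. Leaving out libraries in turn, the genes called ran from 1028 to 1379 for cave against surface 1 dpi, 258 to 504 for cave against surface 7 dpi, 898 to 1403 for cave against surface saline, 7 to 43 for the form difference from 1 to 7 dpi and 0 to 313 for the interaction at 14 dpi. When each library was dropped, the genes called ran from 4 to 38 for the interaction at 1 dpi, 3 to 19 for the interaction at 7 dpi, 35 to 935 for surface 14 dpi against 7 dpi, 1 to 54 for surface 14 dpi against saline and 1604 to 2138 for surface 1 dpi against saline. With 1 library left out, the genes called ran from 199 to 503 for surface 7 dpi against 1 dpi and 66 to 603 for surface 7 dpi against saline. Among members that were not called, the sign changed to -0.02436 for mpx in surface 14 dpi against saline with quantile normalization, -0.1832 for mpx in surface 14 dpi against saline with replicate block, -0.0003211 for mpx in surface 14 dpi against saline with unscaled TPM. It changed to -0.08983 for ncf4 in cave 7 dpi against saline with quantile normalization and -0.01477 for ncf4 in cave 7 dpi against saline with replicate block. With 1 library left out, uncalled changes crossed 0, from -0.5352 to 1.713 for cybb in surface 14 dpi against saline, -1.241 to 0.1253 for cybb in surface 7 dpi against 1 dpi, -0.06784 to 0.8159 for lect2l in cave 7 dpi against saline, -0.4542 to 0.1601 for lect2l in surface 14 dpi against saline. With 1 library left out, uncalled changes crossed 0, from -0.6464 to 0.1541 for lect2l in surface 7 dpi against saline, -0.1267 to 0.15 for mpx in surface 14 dpi against saline, -0.714 to 0.5165 for ncf1 in surface 7 dpi against 1 dpi, -0.05391 to 0.1529 for ncf4 in cave 7 dpi against saline. With 1 library left out, uncalled changes crossed 0, from -0.2161 to 1.142 for rac2 in surface 14 dpi against saline, -0.7422 to 0.4509 for rac2 in surface 7 dpi against 1 dpi. Over 77 member results, 415 of the values with 1 library left out kept direction and side of the threshold, 53 lost a call, 7 gained one and 15 changed sign. Over the other 9 alternatives the numbers were 524, 48, 10 and 5. No member that was called changed sign. The cause of these changes was not tested, except that fewer genes are tested with a mean of at least 5 TPM and fewer libraries enter the model in the compared groups alone. Groups of 2 libraries limit every comparison at 7 and 14 dpi, and depth is unknown because TPM holds no read numbers.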
